A study of Rattus norvegicus with 24 samples.

Results

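The genes described here are 40 Ensembl gene IDs that stood lower in high-responder than in low-responder rats in both the amygdala and the dorsal raphe. High-responder and low-responder rats are lines bred for opposite reactions to a new environment, the first exploring it more than the second. Poly-A RNA was sequenced from brain tissue of 60-day-old rats of both lines, with 6 libraries per line in either region and 24 altogether. No treatment is given in the labels, so line and region are the only differences named between the groups, and since each direction was bred as 1 line, what differs with behaviour and what differs with ancestry cannot be told apart. The amygdala is a forebrain structure that takes part in fear and emotional learning. The dorsal raphe is a midbrain nucleus from which serotonin neurons project to much of the forebrain. Lines kept apart over generations of breeding come to differ at loci that selection acted on and at loci that drifted.

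The members were chosen from the values themselves. Counts were divided by the library total and scaled to a total of 1000000 counts, giving CPM. In each region a line difference, d, was taken as the mean log2(CPM + 0.5) of the 6 low-responder libraries minus that of the 6 high-responder libraries, so a positive d is lower in high responders. Of 32662 IDs, 14785 reached a mean of 1 CPM in at least 1 group, and 3732 of these had d above 0 in both regions. The rule set aside 8 given IDs, of which 4 were among the 3732. The 40 members were the IDs with the largest smaller d of the 2 regions among the remaining 3728. Every line difference of a member below is therefore a description, and no test of it is given. The tables do not pair IDs with gene names, and 0 Ensembl rat IDs were found in the reference tables used here. Genes are named by ID only, their functions and positions are not given, and the regions could not be checked against marker genes of their cell types.

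Library totals ran from 9232983 to 20194601 counts. No difference in totals between the lines was detectable, with an exact permutation p of 0.994 for the amygdala and 0.355 for the dorsal raphe (both two-sided, 6 libraries against 6). The 10 most counted IDs took 3.60% to 15.2% of a library, with the highest share in low-responder dorsal raphe library 5. The labels do not say whether libraries of a group came from separate rats or whether equal numbers in the 2 regions mark the same rat. In bulk tissue, fewer cells of a type and less RNA per cell cannot be told apart.

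The line difference of most members was modest. The smaller d was above 0.8 for 7 members, between 0.5 and 0.8 for 13 and at most 0.5 for 20. The median d was 0.56 for the amygdala (range 0.39 to 1.94) and 0.67 for the dorsal raphe (range 0.39 to 2.55), where the medians over all IDs with at least 1 CPM in a group were -0.01 and -0.03. The difference was larger in the dorsal raphe for 29 members and larger in the amygdala for 11. Just inside the limit of the rule stood ENSRNOG00000008602, ENSRNOG00000025639 and ENSRNOG00000002072 with a smaller d of 0.396, 0.393 and 0.391. Just outside it stood ENSRNOG00000039207, ENSRNOG00000021856 and ENSRNOG00000014202 with 0.386, 0.386 and 0.385, so the last places were set by differences in the third decimal.

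**Figure D1:**
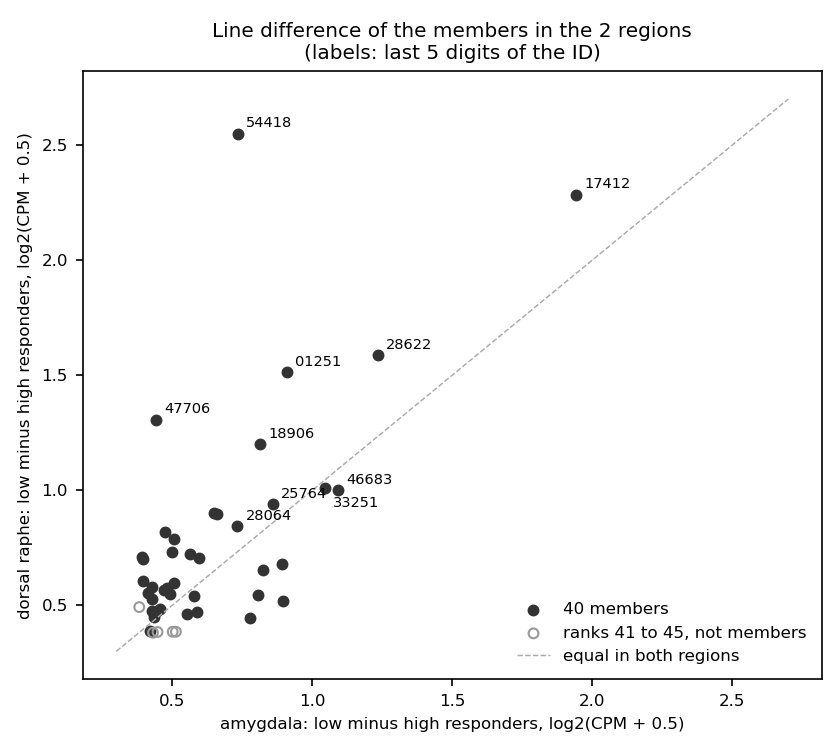
Line difference of each member in the amygdala (horizontal axis) and the dorsal raphe (vertical axis), as low minus high responders on the log2(CPM + 0.5) scale. Filled points are the 40 members and open points the next 5 IDs in rank. Most members lie near the lower left corner, between 0.39 and about 1 on both axes, and ENSRNOG00000017412 and ENSRNOG00000054418 lie apart from the rest.

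The members were weakly expressed. Their mean over the 4 groups ran from 0.606 to 21.2 CPM, with a median of 2.49 CPM against 23.3 CPM over the 3728 IDs from which they were ranked. A mean under 5 CPM was found in 30 of the 40 members (75%) and in 22.1% of those 3728. At least 1 library had under 10 counts for 24 members, and 2 members had a library with 0 counts. These counts are small enough that counting error is part of every value given here. In 7 members the mean was under 1 CPM in both high-responder groups. They met the 1 CPM limit only through a low-responder group, where the rule asks for higher values. The rule ranked d without weighing its error, so the low level of the members may follow from the choice.

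ENSRNOG00000017412 had the largest smaller d. In the amygdala its lowest, median and highest values were 0.0817, 0.167 and 0.380 CPM in high responders, from 1 to 4 counts per library. In low-responder amygdala they were 1.49, 2.26 and 2.87 CPM, from 18 to 40 counts. All 6 low-responder libraries lay above all 6 high-responder libraries, and d was 1.94. Dorsal raphe values were 0.0775, 0.353 and 3.40 CPM in high responders and 2.58, 4.99 and 5.83 CPM in low responders, with a d of 2.28. There the lines overlapped in 1 high-responder library, number 4, which at 3.40 CPM lay above the lowest low-responder library.

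ENSRNOG00000028622 stood second. High-responder amygdala was even, at 1.47, 2.15 and 2.59 CPM (lowest, median, highest). Low-responder amygdala reached higher, at 1.87, 6.74 and 8.50 CPM, and 5 of its 6 libraries lay above every high-responder one. Dorsal raphe values were 1.33, 3.11 and 4.88 CPM in high responders and 1.76, 9.98 and 25.0 CPM in low responders. The low-responder libraries that fell into the high-responder range were number 6 in the amygdala and number 5 in the dorsal raphe. The d of this ID was 1.23 in amygdala and 1.59 in dorsal raphe.

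Next in rank were 2 scarcely expressed IDs with d just above 1 in both regions. ENSRNOG00000033251 had 1 to 7 counts per library in high-responder amygdala and 3 to 25 in low-responder amygdala, or medians of 0.221 and 1.24 CPM. It had 0 to 4 counts in high-responder dorsal raphe and 4 to 33 in low-responder dorsal raphe, and in CPM all 6 low-responder libraries lay above all 6 high-responder ones. Library 4 of either line had 4 counts there, at 0.212 CPM in high and 0.349 CPM in low responders. The order of those libraries thus came from their totals. The dorsal raphe medians of ENSRNOG00000033251 were 0.132 and 0.575 CPM. ENSRNOG00000046683 had medians of 0.144 and 0.917 CPM in high- and low-responder amygdala and of 0.263 and 1.15 CPM in the dorsal raphe. In each region 5 of 6 low-responder libraries of ENSRNOG00000046683 lay above all high-responder ones. For both IDs the higher group rested on at most 33 counts per library.

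ENSRNOG00000001251 was present at a much higher level in the dorsal raphe than in the amygdala. High-responder amygdala had 1 to 3 counts per library, with 0.0925, 0.172 and 0.290 CPM as lowest, median and highest. Low-responder amygdala had 0.0869, 1.20 and 1.41 CPM, with libraries 1 to 4 above the high-responder range and libraries 5 and 6 inside or below it. Dorsal raphe values were 0.542, 1.62 and 2.55 CPM against 0.997, 7.58 and 16.3 CPM, and again 4 of 6 low-responder libraries lay above the high-responder range. The d of 0.91 and 1.51 thus came from most, not all, low-responder libraries.

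ENSRNOG00000025764 and ENSRNOG00000018906 followed with a smaller d of 0.86 and 0.82. ENSRNOG00000025764 had medians of 3.57 and 8.66 CPM in high- and low-responder amygdala and of 2.54 and 4.71 CPM in the dorsal raphe. Its highest low-responder dorsal raphe value, 26.5 CPM in library 5, was far above the next, 8.26 CPM, and without that library its d in the dorsal raphe was 0.50 in place of 0.94. ENSRNOG00000018906 was the most abundant member. In low-responder dorsal raphe it was even, at 29.0, 31.0 and 33.6 CPM, while high-responder dorsal raphe ran from 8.91 to 34.4 CPM with a median of 9.77 CPM. High-responder libraries 4 and 5, at 34.4 and 19.1 CPM, were the ones nearest the low-responder level, and number 4 exceeded it. In the amygdala ENSRNOG00000018906 ran from 3.99 to 22.8 CPM in high responders and from 19.5 to 33.5 CPM in low responders, and without high-responder library 2 its d there was 0.49 in place of 0.82.

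**Figure D2:**
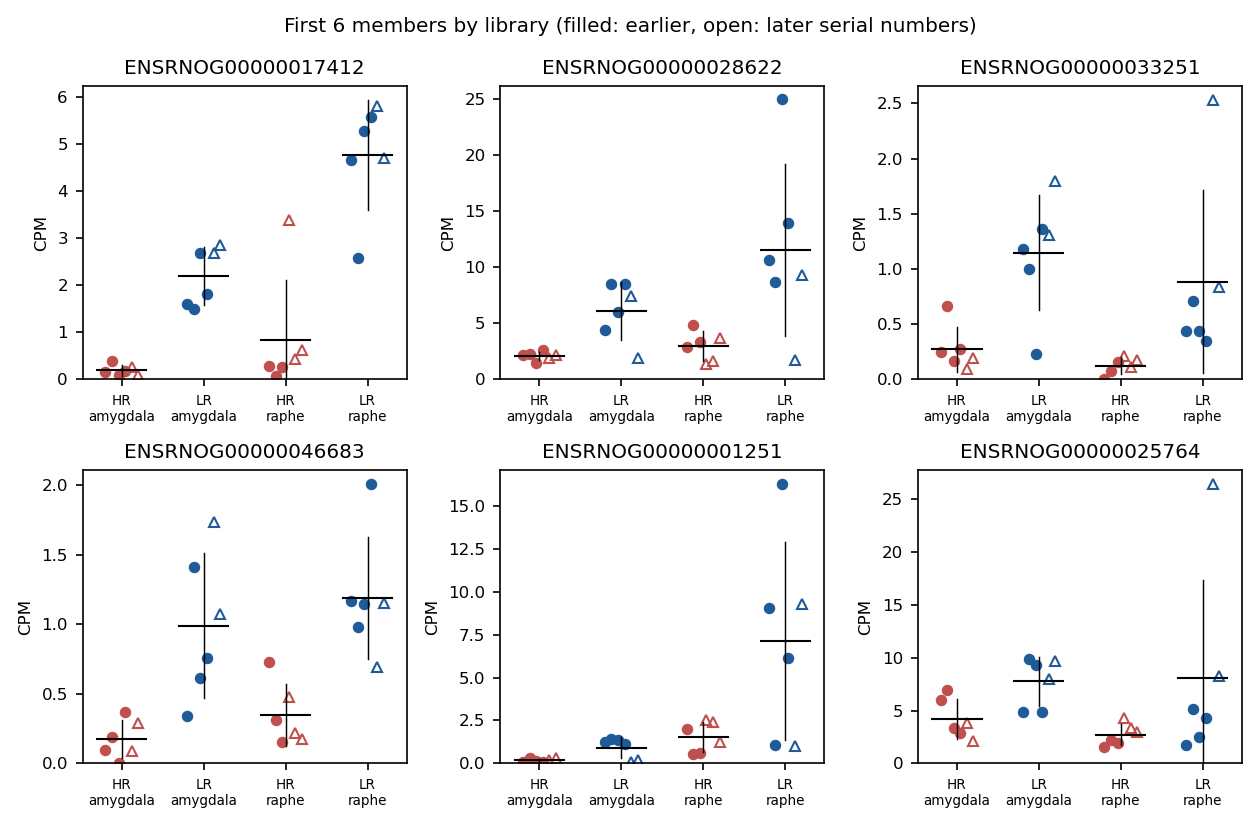
CPM of the first 6 members in each of the 24 libraries, by line (HR, high responder, in red; LR, low responder, in blue) and region. Points are libraries, filled for earlier and open for later serial numbers, horizontal bars are group means and vertical bars are ± 1 SD, cut at 0. ENSRNOG00000017412 shows full separation of the lines in the amygdala and 1 high-responder dorsal raphe library, at 3.40 CPM, inside the low-responder range.

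ENSRNOG00000054418 had the largest dorsal raphe difference of the members, with d of 2.55, and a much smaller one of 0.73 in the amygdala. All 6 low-responder dorsal raphe libraries, at 1.46, 8.13 and 12.1 CPM (lowest, median, highest), lay above all 6 high-responder ones, at 0.108, 0.786 and 1.19 CPM. In the amygdala only low-responder libraries 1 and 4, at 8.93 and 10.3 CPM, lay above the high-responder maximum of 2.23 CPM. The other 4 low-responder amygdala libraries ran from 0.539 to 1.87 CPM, inside the high-responder range. Without library 4 its d in the amygdala was 0.36.

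The remaining members of the first 12 differed less and overlapped more. ENSRNOG00000028064 had medians of 1.75 and 4.82 CPM in high- and low-responder amygdala and of 24.7 and 42.4 CPM in the dorsal raphe. ENSRNOG00000046132 had medians of 4.04 and 6.80 CPM in the amygdala and 3.02 and 6.21 CPM in the dorsal raphe. High-responder dorsal raphe library 4 of ENSRNOG00000046132, at 8.33 CPM, lay above 5 of 6 low-responder libraries. ENSRNOG00000058611 had medians of 1.28 and 2.52 CPM in the amygdala and 1.02 and 2.52 CPM in the dorsal raphe. ENSRNOG00000055751 had medians of 1.28 and 2.92 CPM in the amygdala and 1.85 and 3.29 CPM in the dorsal raphe, and 5 of 6 low-responder dorsal raphe libraries lay above all high-responder ones.

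Complete separation of the lines, with all 6 low-responder libraries above all 6 high-responder ones, was seen for 3 members in the amygdala, for 3 others in the dorsal raphe and for 0 in both. In the amygdala these were ENSRNOG00000017412, ENSRNOG00000047706 and ENSRNOG00000025938. For ENSRNOG00000047706 the highest high-responder value was 0.743 CPM and the lowest low-responder value 0.782 CPM. For ENSRNOG00000025938 they were 1.39 and 1.41 CPM. Both gaps were smaller than 1 count, which was at least 0.0495 CPM in an amygdala library. The members separated in the dorsal raphe were ENSRNOG00000033251, ENSRNOG00000054418 and ENSRNOG00000018616, the last at 1.95 to 3.10 CPM in high and 3.24 to 4.75 CPM in low responders. Over all genes tested the share with such a separation was 0.294% for the amygdala and 0.153% for the dorsal raphe. The rule chose the members on this contrast, so nothing is read from their count.

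Few genes of any kind passed edgeR's test of the line difference. DESeq2 and limma voom with quality weights called more, as given below. With edgeR's quasi-likelihood test, 3 of 14265 genes (0.021%) were lower in high-responder amygdala at an adjusted p under 0.05 and 4 of 14390 (0.0278%) in high-responder dorsal raphe. The filter on low counts kept 33 members in the amygdala fit and 36 in the dorsal raphe fit. Since this contrast chose the members, their own places in it are not given. The edgeR count over all genes also depended on single libraries. In the amygdala it was 18 without high-responder library 2, 12 without low-responder library 3 and it fell to 1 when high-responder library 1, 4, 5 or 6 or low-responder library 1 or 2 was left out. The dorsal raphe count was 2 without low-responder library 3, 6 without low-responder library 5, and 1 when high-responder library 1, 2, 3, 5 or 6 or low-responder library 1, 2 or 4 was left out.

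**Figure D3:**
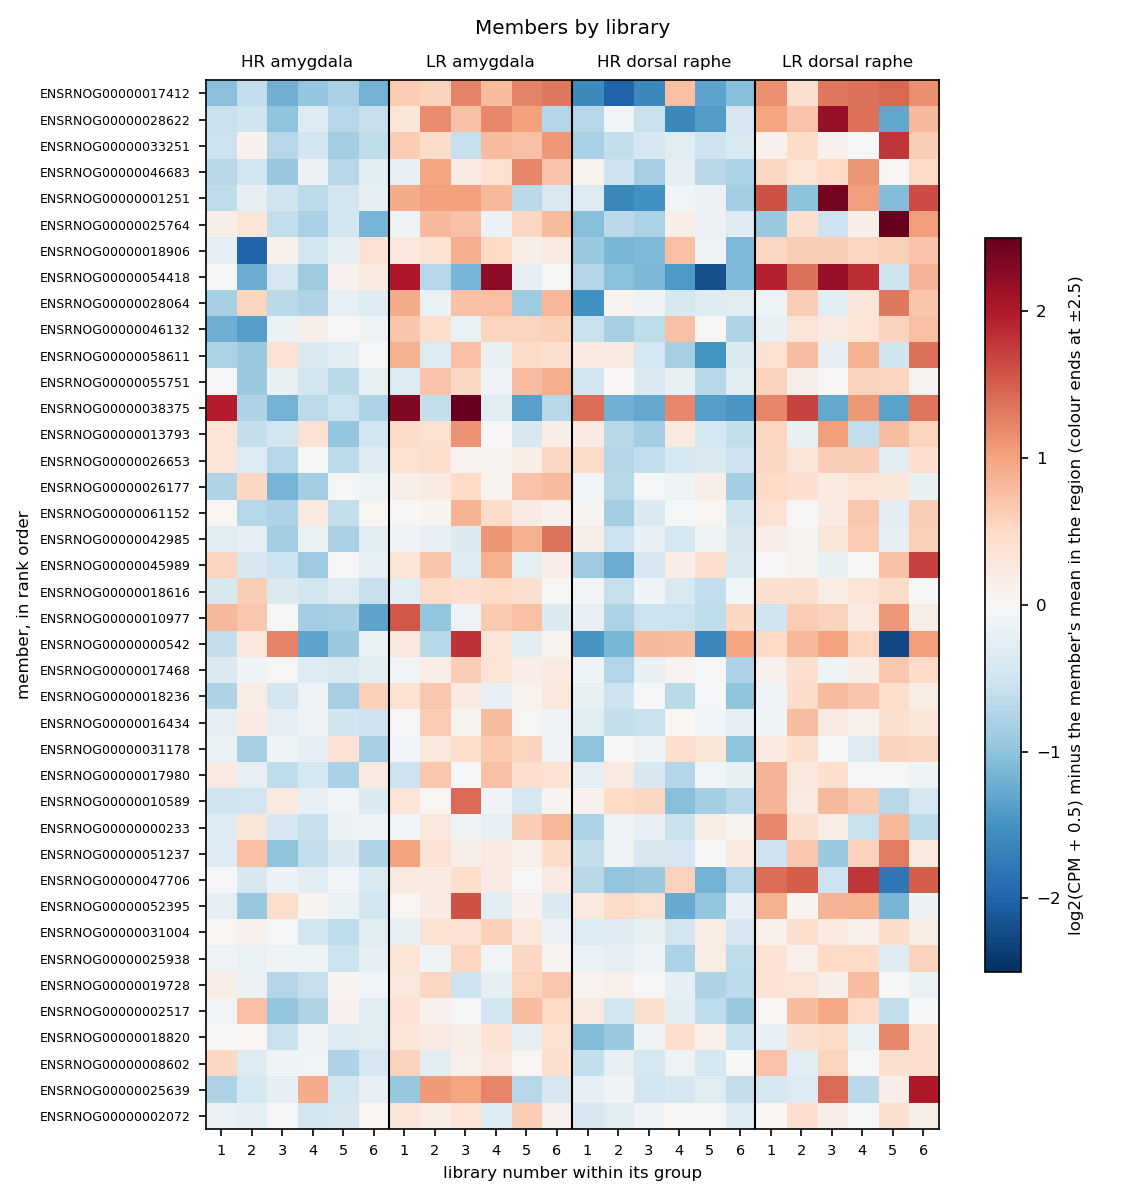
Every member (rows, in rank order) in every library (columns, by line HR or LR, region and library number). Colour is log2(CPM + 0.5) minus the member's mean over the 12 libraries of the region, red above and blue below, with the colour scale ending at ±2.5. Low-responder columns are mostly red and high-responder columns mostly blue, as the rule requires, and ENSRNOG00000038375, ENSRNOG00000054418, ENSRNOG00000000542 and ENSRNOG00000047706 show strong red and blue cells within 1 line.

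Several members were uneven within a line. The rule ranked differences of means without weighing the spread, so a few extreme libraries can give a large d. Uneven IDs may therefore be favoured by the choice itself. The spread between libraries of a group was set against counting noise as a chi-square per degree of freedom, which is near 1 when libraries differ by counting error only. Its median was 7.23 over the 40 members and 3.23 over all 6929 IDs in the members' CPM range. Those IDs were bounded by that range and not matched to the members' levels within it, so a difference in level may enter the comparison. A value above the 90th percentile of those IDs, 12.2, was found for 14 members (35%). The spread and the line difference come from the same libraries, so this is a description with no test. The members printed next were chosen after their values were seen.

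ENSRNOG00000038375 was the most uneven, with a chi-square of 39.9 per degree of freedom, and it fell into high and low libraries in both lines. In the amygdala high-responder library 1 and low-responder libraries 1 and 3 stood at 5.40 CPM or more and the other 9 libraries at 0.759 CPM or less. In the dorsal raphe high-responder libraries 1 and 4 and low-responder libraries 1, 2, 4 and 6 stood at 3.40 CPM or more and the other 6 at 0.310 CPM or less. High values were thus seen in 3 of 12 high-responder and 6 of 12 low-responder libraries, with no library in between. The line difference of this ID is a difference in how many libraries were high, and in the amygdala its d was 0.65 with all libraries and 0.20 without low-responder library 3.

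ENSRNOG00000047706 and ENSRNOG00000000542 were split in the dorsal raphe. ENSRNOG00000047706 stood at 8.97 CPM or more in low-responder dorsal raphe libraries 1, 2, 4 and 6 and at 2.02 and 0.537 CPM in numbers 3 and 5, while 5 of the 6 high-responder libraries ran from 1.08 to 1.73 CPM and number 4 reached 4.88 CPM. In the amygdala it was low and even, with 0.475 to 0.743 CPM in high and 0.782 to 1.23 CPM in low responders. ENSRNOG00000000542 stood at 5.40 CPM or more in high-responder dorsal raphe libraries 3, 4 and 6 and in every low-responder one but number 5, and at 1.39 CPM or less in the other 4. ENSRNOG00000025639, near the limit of the rule, owed its dorsal raphe d of 0.71 to low-responder libraries 3 and 6, at 20.1 and 30.3 CPM, while the other 4 ran from 4.36 to 8.13 CPM against 4.60 to 6.82 CPM in high responders.

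**Figure D4:**
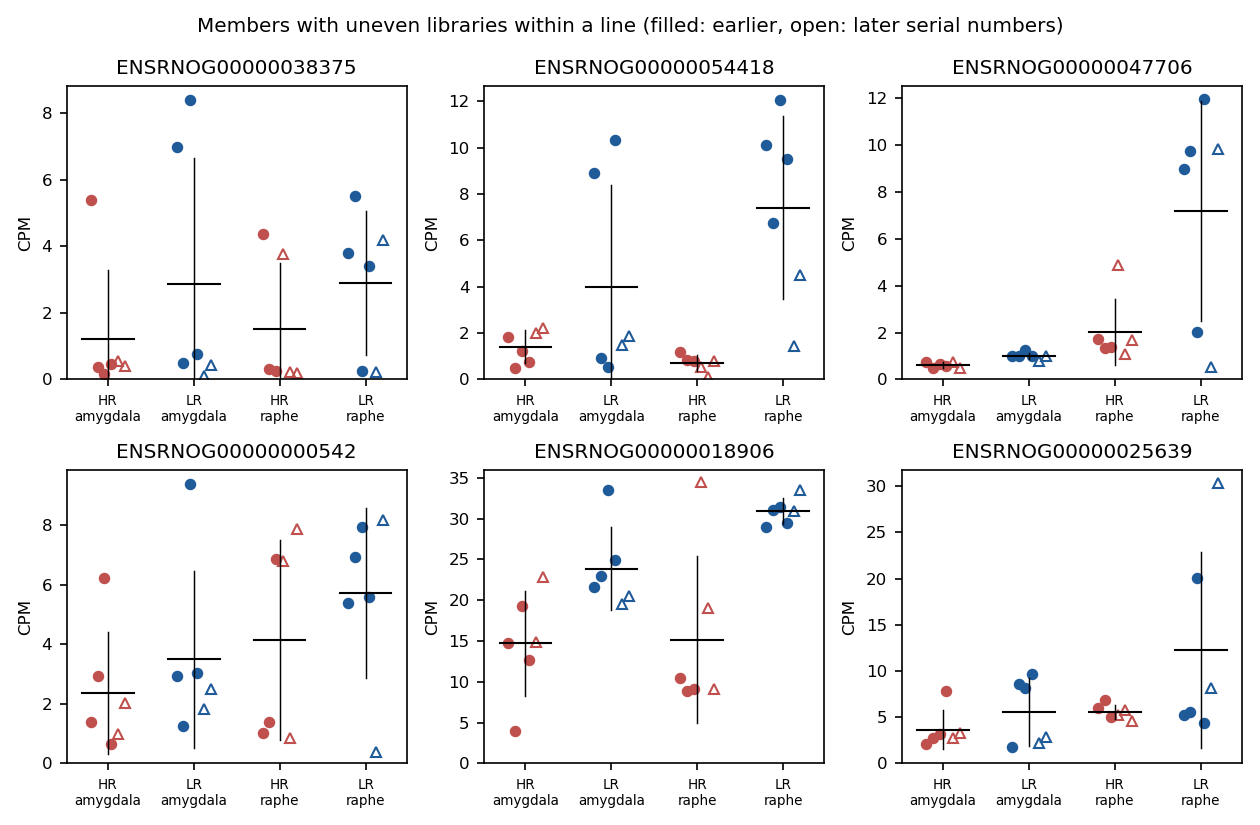
CPM by library of 6 members with uneven values within a line, by line (HR, high responder, in red; LR, low responder, in blue) and region. Points are libraries, filled for earlier and open for later serial numbers, with group means and ± 1 SD, cut at 0. ENSRNOG00000038375 shows high libraries at 3.40 CPM or more and low ones at 0.759 CPM or less in both lines.

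Libraries differed in how many members followed their line. Each library was compared, member by member, with the mean of the other libraries of its own line and with the mean of the other line in its region. Between 4 and 17 of the 40 members lay nearer the other line. The highest counts were in the dorsal raphe, 17 in low-responder library 5 and 15 in high-responder library 4. With members chosen for a large d over these same libraries, d was bound to stay mostly above 0 when 1 was left out, and it did for all 40 in both regions. Leaving out 1 library brought d below 2/3 of its full value for 9 members in the amygdala and for 8 in dorsal raphe. The rule applied without 1 library kept 29 to 37 of the 40 members, 29 of them without low-responder dorsal raphe library 5.

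Each deposited table also carries a serial number, apart from the library number within its group. Within each group the libraries were split here at the first gap in these serial numbers, into an earlier and a later set. There are 4 earlier and 2 later libraries except in high-responder dorsal raphe, where there are 3 of each and the later set holds a further gap. Every low-responder serial number is below every high-responder one, so anything that follows the series as a whole and the line cannot be told apart. What the serial numbers stand for is not given in the labels. Both sets are parts of the libraries on which the members were chosen, so mostly positive d in each follows from the choice and is no sign of stability. In the amygdala d was above 0 for 40 members in the earlier and 36 in the later libraries, with medians of 0.58 and 0.58. For the dorsal raphe the counts were 40 and 39 members, with medians of 0.65 and 0.64. All 4 values were above 0 for 35 members. The 5 others were ENSRNOG00000001251, ENSRNOG00000054418, ENSRNOG00000038375 and ENSRNOG00000025639, with a d of -0.18, -0.27, -0.38 and -0.23 in later amygdala libraries, and ENSRNOG00000000542, with -0.66 in later dorsal raphe libraries.

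Later and earlier libraries themselves were compared within the lines, a contrast that the rule did not use. Of the 39 members tested in the dorsal raphe, 9 passed at an edgeR adjusted p under 0.05, 4 higher and 5 lower in later libraries, or 23.1%. The share over all 15047 genes was 46.4%, with 23.4% higher and 23.1% lower, and the difference between these shares and the members' was not tested. ENSRNOG00000025764 was higher in later libraries by a log2 fold change of 1.81 ± 0.37 (SE, adjusted p = 0.00301 with edgeR) and ENSRNOG00000045989 by 1.44 ± 0.25 (SE, adjusted p = 0.00234 with edgeR). ENSRNOG00000052395 had a log2 fold change of -1.40 ± 0.27 (SE, adjusted p = 0.00253 with edgeR), ENSRNOG00000054418 one of -1.37 ± 0.34 (SE, adjusted p = 0.00679 with edgeR) and ENSRNOG00000010589 one of -1.36 ± 0.16 (SE, adjusted p = 0.00234 with edgeR). In the amygdala 0 of 40 members and 0 of 14964 genes (0%) passed with edgeR, with 5 members and 573 genes (3.83%) at an unadjusted p under 0.05, and DESeq2 also called 0 members. The part of this serial order in the line differences of the 9 members was not tested.

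The rule did not use the region difference itself. Its limits touch it, however, since on the log2(CPM + 0.5) scale an ID near 0 CPM in 1 region cannot reach a large d there, and IDs expressed almost wholly in 1 region were selected against. The difference was fitted on all 24 libraries as amygdala minus dorsal raphe, each averaged over its 2 groups. All 40 members passed the filter. With edgeR's quasi-likelihood test 11 members were higher in the dorsal raphe and 2 in the amygdala at an adjusted p under 0.05, out of 14977 genes of which 34% were higher in the dorsal raphe and 31.8% in the amygdala. The shares of the members were 27.5% and 5%, or 32.5% in either direction against 65.8% of all genes tested. Complete separation, with all 12 dorsal raphe libraries above all 12 amygdala libraries, was found for 4 members (10% of them, against 10.3% of all genes tested) and the reverse for 0 (against 11.6%). The difference between the members and all genes was not tested, and the members' low counts and the limit that the rule sets on such IDs stand beside it. The count of 2 in the amygdala was 4 without low-responder dorsal raphe library 5.

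ENSRNOG00000028064 had the largest region difference, with a log2 fold change of -3.51 ± 0.26 for amygdala over dorsal raphe (SE, adjusted p = 1.37e-11 with edgeR). It stood at 2.10 ± 1.09 and 3.96 ± 1.75 CPM in high- and low-responder amygdala and at 23.9 ± 7.48 and 44.1 ± 18.8 CPM in the dorsal raphe (SD, n = 6 each), and all 12 dorsal raphe libraries lay above all 12 amygdala ones. ENSRNOG00000001251 had a log2 fold change of -2.99 ± 0.49 (SE, adjusted p = 1.04e-05 with edgeR), with the values by library given above. ENSRNOG00000013793 had one of -2.57 ± 0.25 (SE, adjusted p = 2.29e-09 with edgeR), at 1.26 ± 0.673 and 2.15 ± 0.987 CPM in the amygdala and 7.61 ± 2.75 and 13.1 ± 5.15 CPM in the dorsal raphe (SD, n = 6 each, high and low responders). For these 3 IDs the mean level was higher in the dorsal raphe in both lines.

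ENSRNOG00000047706 had a region log2 fold change of -2.27 ± 0.37 (SE, adjusted p = 7.14e-06 with edgeR), although low-responder dorsal raphe library 5, at 0.537 CPM, lay inside the amygdala range. ENSRNOG00000002072 had one of -1.79 ± 0.14 (SE, adjusted p = 2.70e-11 with edgeR), at 0.898 ± 0.197 and 1.39 ± 0.410 CPM in the amygdala and 3.33 ± 0.498 and 4.51 ± 0.621 CPM in the dorsal raphe (SD, n = 6 each, high and low responders), with all 12 libraries of the regions apart. ENSRNOG00000017412 had one of -1.68 ± 0.41 (SE, adjusted p = 0.000992 with edgeR). In the earlier libraries alone its region difference was -0.65 and did not pass (edgeR adjusted p = 0.139). ENSRNOG00000031004 had one of -1.48 ± 0.16 (SE, adjusted p = 1.27e-08 with edgeR).

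The other 4 members called higher in the dorsal raphe had log2 fold changes between -0.88 and -0.45. They were ENSRNOG00000025639, ENSRNOG00000031178, ENSRNOG00000028622 and ENSRNOG00000055751. The call of ENSRNOG00000028622 (edgeR adjusted p = 0.0434) ended in 17 of 34 alternative fits. Among them were 14 that left out 1 library, in which its log2 fold change was -0.70 to -0.50. The call of ENSRNOG00000025639 (log2 fold change -0.88, edgeR adjusted p = 0.0254) ended without low-responder dorsal raphe library 6 (-0.63, edgeR adjusted p = 0.0772) and in the earlier libraries alone (-0.42, edgeR adjusted p = 0.375).

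The 2 members higher in the amygdala were ENSRNOG00000000233 and ENSRNOG00000025938. ENSRNOG00000000233 had a log2 fold change of 0.89 ± 0.22 (SE, adjusted p = 0.000936 with edgeR), at 4.03 ± 1.03 and 5.78 ± 1.93 CPM in high- and low-responder amygdala and 2.04 ± 0.622 and 3.32 ± 1.88 CPM in the dorsal raphe (SD, n = 6 each). ENSRNOG00000025938 had one of 0.52 ± 0.17 (SE, adjusted p = 0.00952 with edgeR), at 1.28 ± 0.189 and 1.92 ± 0.481 CPM in the amygdala and 0.834 ± 0.318 and 1.49 ± 0.419 CPM in the dorsal raphe (SD, n = 6 each). For the remaining 27 members the region log2 fold change ran from -0.76 to 0.66 with standard errors of 0.12 to 0.69, so a difference of that size was not detectable in the less even ones.

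**Figure D5:**
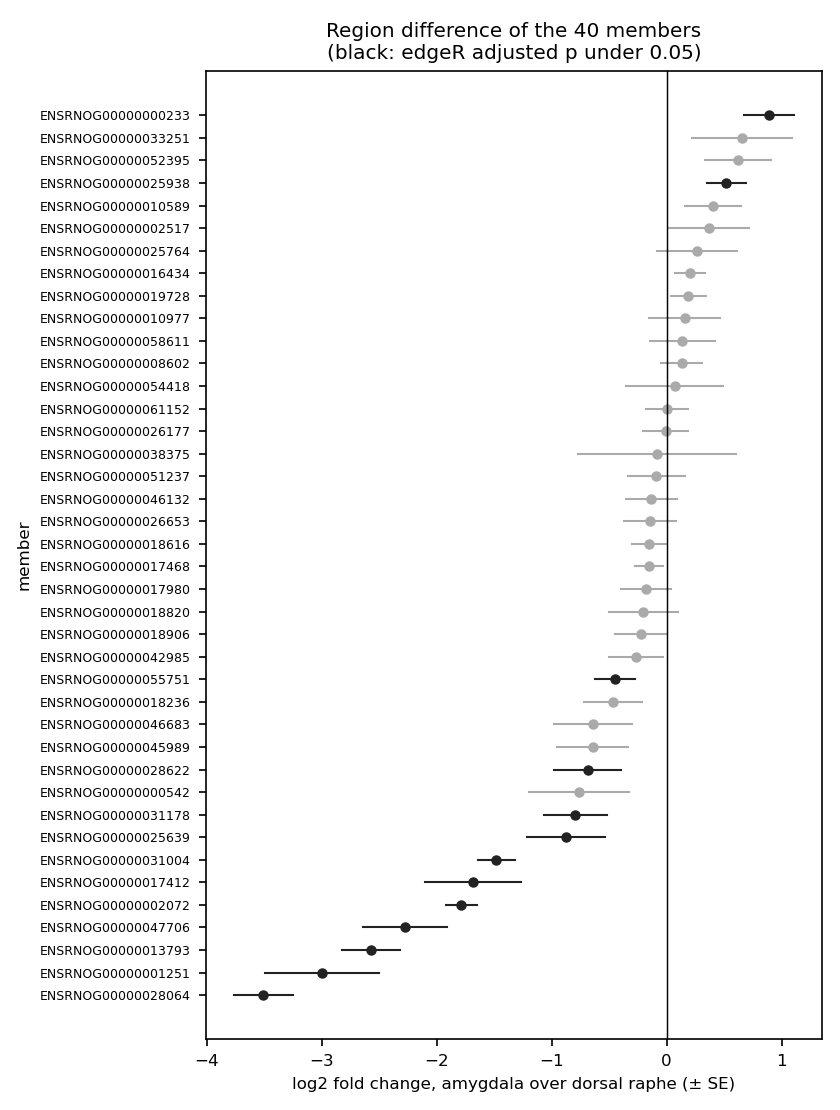
Log2 fold change of amygdala over dorsal raphe for each member with its standard error (bars), from edgeR on 24 libraries. Black points passed an adjusted p under 0.05 and grey points did not. The members called higher in the dorsal raphe, on the left, reach -3.51, while the 2 called higher in the amygdala lie at 0.52 and 0.89.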

How the data were processed

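Libraries were made from poly-A RNA after extraction with the miRNeasy kit, per the labels' protocols. Trim Galore, STAR and rat build rn6 are named in the submitters' processing notes. Tool versions, the program that counted reads, its annotation and its strand setting are not given in the sources used here, so IDs that overlap or share reads with a near-identical copy are uncertain. The deposited values are raw read counts per Ensembl gene ID, whole numbers, in 1 table per library. No libraries were treated as duplicates: in every group even the closest 2 had a chi-square of 3.46 or more per degree of freedom.

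CPM was computed from the deposited counts and library totals. Counts were fitted with edgeR 4.0.16 in R 4.3.3 (filterByExpr, TMM, glmQLFit and glmQLFTest, Benjamini-Hochberg adjustment over all genes tested, threshold 0.05). These edgeR fits were tested on simulated data. For the line and region fits the simulated libraries were drawn independently, with no difference by serial order. The simulation therefore cannot show how those fits behave where such a difference is present. The standard error was taken as log2 fold change over the root of the F statistic. Regions were compared on 24 libraries as 4 groups, lines and serial order within each region on 12. Where nothing says that libraries came from separate rats, p-values cover only the spread between these samples, which may be technical.

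The members and lists were chosen with earlier results of these data known. Named members are the first 12, those with the largest called region differences (up to 5 each way), those separated by line in both regions (0) and ranks 38 to 43. Other members named were chosen after their values were seen. The marker and pathway lists could not be matched to IDs and were not used. Alternatives were RLE factors, library size only, other filters, DESeq2 1.42.0, limma 3.58.1 voom with sample quality weights, a replicate block, a term for serial order, library subsets and other settings of the rule. Equal numbers were not taken as pairs, and the labels do not say whether they are. Over genes, 2 of 12 same-numbered pairs between regions within a line correlated above 0.1. Between lines, where a pair cannot be 1 rat, 2 of 6 did in the amygdala (r from -0.370 to 0.641). In the dorsal raphe 3 of 6 did (r from -0.557 to 0.691). These correlations cannot decide whether equal numbers mark the same rat, so p-values of the region fit rest on libraries taken as unpaired.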

Additional observations from a re-analysis of the deposited data

Results flagged for a closer look

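Of 80 groups of 6 values examined, 76 for the 19 named members on the log2(CPM + 0.5) scale and 4 of library totals, 11 had 1 value far outside the range of the rest. Chance marks about 1 group in 20, or 4 of 80, and the groups share libraries. ENSRNOG00000017412 reached 3.40 CPM in library 4 of high-responder dorsal raphe, with the other 5 between 0.0775 and 0.619 CPM. It was low, at 2.58 CPM, in library 2 of low-responder dorsal raphe, with the other 5 between 4.67 and 5.83 CPM. ENSRNOG00000033251 was low in library 3 of low-responder amygdala, at 0.231 CPM against 0.996 to 1.79 CPM, and high in library 5 of low-responder dorsal raphe, at 2.53 CPM against 0.349 to 0.837 CPM. ENSRNOG00000018906 was low in library 2 of high-responder amygdala, at 3.99 CPM against 12.7 to 22.8 CPM. ENSRNOG00000028064 was low in library 1 of high-responder dorsal raphe, at 10.4 CPM against 22.9 to 32.4 CPM.

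ENSRNOG00000046132 was low in library 3 of low-responder amygdala, at 3.93 CPM against 6.23 to 7.58 CPM, and ENSRNOG00000025938 in library 5 of high-responder amygdala, at 0.904 CPM against 1.26 to 1.39 CPM. ENSRNOG00000047706 was high in library 4 of high-responder dorsal raphe, at 4.88 CPM against 1.08 to 1.73 CPM. ENSRNOG00000025639 was high in library 4 of high-responder amygdala, at 7.86 CPM against 2.08 to 3.29 CPM. The total of library 1 of high-responder amygdala, 20194601 counts, exceeded those of the other 5, which ran from 10333764 to 12243679.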

How the results depend on the processing

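The rule applied to medians kept 25 of the 40 members, and applied to the earlier libraries alone it kept 23. Other settings of the rule kept 28 (pseudocount 0.1, and also pseudocount 2) to 37 (TMM-scaled totals), and leaving out 1 library kept 29 to 37. The 2 members higher in the amygdala became 5 with limma voom and quality weights, with a term for serial order, in the earlier libraries and in the later ones, and 2 to 4 without 1 library. The 11 higher in the dorsal raphe were 8 to 13 over all alternatives and 10 to 12 without 1 library. Of 13 region calls, 7 were kept in each of 34 alternatives, 0 changed direction, and 11 uncalled members gained a call in at least 1. With the replicate block the counts were 2 and 9, although not every same-numbered pair of libraries deviated together. The count of genes lower in high-responder amygdala, 3, was 1 with RLE, library size only or no low count filter, 52 with DESeq2, 147 with limma voom and quality weights and 1 to 18 without 1 library. That in the dorsal raphe, 4, was 2 with no low count filter or with the replicate block, 27 with DESeq2, 15 with limma voom and quality weights and 1 to 6 without 1 library. The 9 members that differed with serial order in the dorsal raphe were 7 to 13 without 1 library. The causes were not tested. Counting error is largest where counts are low, and 16.7% of the members' values were under 10 counts. The median chi-square per degree of freedom between libraries was 7.23 over the members. The part of either in these changes was not tested.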

Other observations

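Some members stood close together in the lines of the deposited tables, which list all IDs in 1 order. Whether that order follows the genome is not given in the sources used here. Within 2 lines of each other stood ENSRNOG00000046683 and ENSRNOG00000018616, and also ENSRNOG00000017980 and ENSRNOG00000054418. The first 6 members in table order, ENSRNOG00000017412, ENSRNOG00000031178, ENSRNOG00000046683, ENSRNOG00000018616, ENSRNOG00000016434 and ENSRNOG00000017468, fell within 512 lines, from 431 to 942. These lines hold 1.45% of the IDs that reached 1 CPM in a group and 15% of the members. Of their 214 such IDs, 36.4% had d above 0 in both regions, against 25.2% over the table, and their median d was 0.03 for amygdala and -0.00336 for dorsal raphe. The stretch was delimited by the members themselves after its values were seen, and its shares include those 6 members. No test was made of it, and whether the members are spread unevenly over the lines was not tested.

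ENSRNOG00000010589 and ENSRNOG00000052395 had their highest amygdala values in the same library. Low-responder amygdala library 3 stood at 13.7 CPM for ENSRNOG00000010589 and 14.6 CPM for ENSRNOG00000052395, and the next highest amygdala values were 6.32 and 6.29 CPM. Without that library their d in the amygdala was 0.22 and 0.16, in place of 0.46 and 0.43. In high responders too, library 3 was the highest of the amygdala group for both, at 5.80 CPM for ENSRNOG00000010589 and 6.29 CPM for ENSRNOG00000052395. Over all genes the deviations of these 2 number 3 amygdala libraries from their group means correlated at 0.641. Their 10 most counted IDs took 3.60% (high responder) and 3.80% (low responder) of the library, against 5.96% or more in the other amygdala libraries. The part of this in the members' values was not tested. Both IDs were also lower in later than in earlier dorsal raphe libraries, as given above.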
